A study of Saccharomyces cerevisiae with 4 samples.

Results

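Guanine nucleotides in *Saccharomyces cerevisiae* are made from IMP by 3 enzyme steps, and the transcripts of 5 genes for these steps are described here in cells that lack the high-affinity potassium uptake system. The genes are *IMD2* (YHR216W), *IMD3* (YLR432W) and *IMD4* (YML056C) of the IMP dehydrogenase family, *GUA1* (YMR217W) and *GUK1* (YDR454C). They were taken by their systematic names from a table of 6212 rows, and all 5 had a value on each of 4 arrays. The set was chosen because the ratio of *IMD2* was strongly negative in this same comparison, so the values of the 5 genes are given as a description with no test.

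The mutant lacks *TRK1* and *TRK2*, which encode the potassium transporters of that system, and the reference is the wild type. Both are in the BY4741 background, a laboratory strain that carries auxotrophic markers, and the make-up of the mutant alleles and the number of clones is not given in the sources used here. Both strains grew at 28 °C in 50 ml of Translucent medium, whose own potassium was 15 µM, with 50 mM KCl added, and were collected by filtration in log phase at an A600 of 0.6. Their cDNA, copied from an oligo(dT) primer, was hybridised together on 4 dual-colour arrays from 2 experiments, each with a dye swap. Mutant cDNA was labelled with Cy5 for arrays 1 and 4 and with Cy3 for the other two. Experiment 1 was read as arrays 1 and 2, and experiment 2 as arrays 3 and 4. Only the word independent in the labels says that the experiments were separate cultures, and the spread between them may otherwise be technical.

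The values are mutant over wild-type ratios on the log2 scale, on which a step of 1 is a 2-fold change and a negative value means less signal from the mutant. The base of the logarithm is not stated in the labels and was taken as 2, so every fold rests on that reading. The arrays of each experiment were averaged first and the experiments second, and errors are moderated standard errors of limma, a linear model fitted across all genes, with n = 2 experiments. The arrays held between 4690 and 5403 values and 4255 genes were measured on all 4, and the number of arrays limits the precision. The deleted *TRK1* read −6.13 on array 1 and −4.60 on array 4, and *TRK2* −4.23 on array 4, with no value on the remaining arrays. Array 4 stood apart from the others, with a correlation over genes of 0.27 to 0.39 with them, against 0.55 to 0.80 among arrays 1, 2 and 3.

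IMP dehydrogenase oxidises IMP to XMP and is the committed, rate-limiting step of guanine nucleotide synthesis. GMP synthase, encoded by *GUA1*, then turns XMP into GMP, and guanylate kinase, encoded by *GUK1*, phosphorylates GMP to GDP, from which GTP is made. The yeast family is known for *IMD2*, whose product resists the inhibitor mycophenolic acid and whose messenger RNA is induced when guanine nucleotides run low. That control works through the choice of transcription start: with ample GTP the polymerase starts upstream and the transcript is terminated early by the Nrd1, Nab3 and Sen1 proteins, and with little GTP it starts downstream and makes the messenger. The IMD genes are close copies of each other and can share signal on an array, and probe sequences were not used here, so their values may not be separate measurements.

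Along the pathway the low ratios lay at the IMP dehydrogenase step. *IMD2* and *IMD3* stood about equally low, *IMD4* was lower to a smaller extent and not on every array, and *GUA1* and *GUK1* had means close to 0. By the criterion of a mean at least 1.5-fold lower with a negative ratio on all 4 arrays, 2 of the 5 genes qualified, *IMD2* and *IMD3*, beside 6.67% of all genes measured on 4 arrays. None of the 5 was higher by the mirrored criterion, which 3.88% of all genes met. Without array 4, an alternative added after the data were seen, *IMD4* met the same criterion on the 3 remaining arrays, which made 3 of 5 beside 9.45% of all genes. The median of the 5 means was that of *IMD4*, −0.68, against −0.04 over all 4255 genes. The set was chosen through *IMD2* and its IMD copies may share signal, so this median and these counts measure no enrichment.

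*IMD2* read −2.08, −1.87, −2.22 and −1.84 on arrays 1, 2, 3 and 4. The 4 values lie close together, all are negative, and neither dye orientation nor experiment sets them apart. Their mean was −2.00 ± 0.16, a 4.01-fold lower ratio, with −1.97 in experiment 1 and −2.03 in experiment 2. The SD over the 4 arrays was 0.18, and 23.2% of all genes had a smaller one. *IMD2* ranked 10th from the bottom of 4255 genes by its mean. On single arrays it was the 16th lowest of 4797 values on array 1, the 21st of 4690 on array 2, the 17th of 4972 on array 3 and the 63rd of 5403 on array 4. Its rank was thus farther from the bottom on array 4, although its ratio there was nearly that of array 2.

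*IMD3* read −2.10, −1.81, −2.05 and −1.42 on arrays 1 to 4. It was negative throughout and least so on array 4. The mean was −1.84 ± 0.17, a 3.59-fold lower ratio, and *IMD3* ranked 16th from the bottom. The difference between the log2 ratios of *IMD2* and *IMD3* was 0.02, −0.05, −0.18 and −0.42 on arrays 1 to 4, a mean of −0.16 ± 0.20 (SD, n = 2 experiments). The genes therefore did not differ from each other by more than the spread between experiments. *IMD3* was also the gene whose 4 values lay nearest to those of *IMD2* among all genes, with a Euclidean distance of 0.46 over the 4 arrays.

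*IMD4*, a copy whose transcript carries an intron, read −1.001, −0.84, −0.97 and 0.10 on arrays 1 to 4. The ratio was negative on the 3 arrays that resemble each other and slightly positive on array 4. The mean was −0.68 ± 0.19, a 1.60-fold lower ratio, but the experiment means, −0.92 and −0.44, were far apart, and without array 4 the mean was −0.95. The ratio of *IMD4* was above that of *IMD2* on every array, by 1.08, 1.03, 1.25 and 1.94, a mean difference of 1.32 ± 0.38 (SD, n = 2 experiments). It was above that of *IMD3* by 0.98 to 1.52, a mean difference of 1.17 ± 0.19 (SD, n = 2 experiments). In rank, *IMD4* was the 158th lowest value on array 1, the 267th on array 2 and the 275th on array 3, but the 3091st on array 4.

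**Figure D1:**
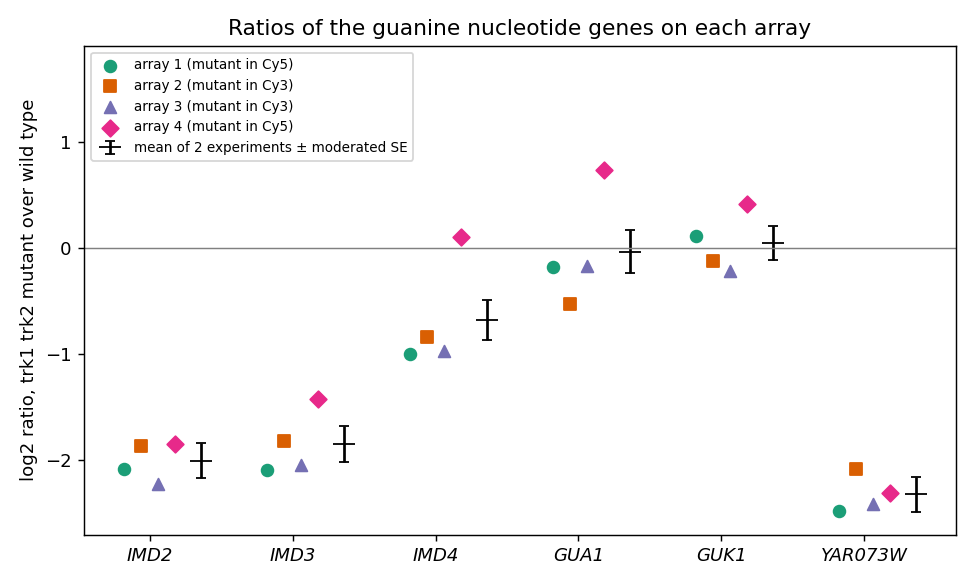
Log2 ratio of mutant over wild type (y axis) for the 5 genes and the row YAR073W on each of 4 arrays (coloured symbols), with the mean of 2 experiments and its moderated standard error (black). IMD2, IMD3 and YAR073W lie between −2.48 and −1.42 on every array, while IMD4, GUA1 and GUK1 are positive on array 4, at 0.10, 0.73 and 0.41.

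The row YAR073W was listed here as *IMD1*, a possible further copy in the family that could share signal with *IMD2*. The RefSeq gene table used for names does not hold it, so it is given by its systematic name. It read −2.48, −2.09, −2.41 and −2.31 on arrays 1 to 4. Its ratios were lower than those of *IMD2* on every array, by 0.18 to 0.47. The mean was −2.32 ± 0.16, a 4.99-fold lower ratio, the sixth lowest of all genes. After *IMD3*, the genes nearest to *IMD2* over the 4 arrays were *GAP1*, the general amino acid permease (distance 0.53, mean −2.14), *PDR5*, a multidrug efflux pump (0.55, mean −1.92), and *FET3*, the oxidase of high-affinity iron uptake (0.57, mean −2.25), and YAR073W came next at 0.68. The likeness rests on 4 values of 1 comparison.

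*GUA1* read −0.18, −0.53, −0.17 and 0.73 on arrays 1 to 4, with a mean of −0.04 ± 0.21. The sign on array 4 was opposite to that on the other arrays, and the experiment means were −0.35 and 0.28. With each array centred on its median the mean was 0.02, so no direction can be given for this gene. *GUK1* read 0.11, −0.13, −0.21 and 0.41, with a mean of 0.05 ± 0.16 and experiment means of −0.01 and 0.10. Its values fell on both sides of 0 within each experiment. *GUA1* ranked 2156th and *GUK1* 2573rd from the bottom of 4255 genes, in the middle of the distribution.

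**Figure D2:**
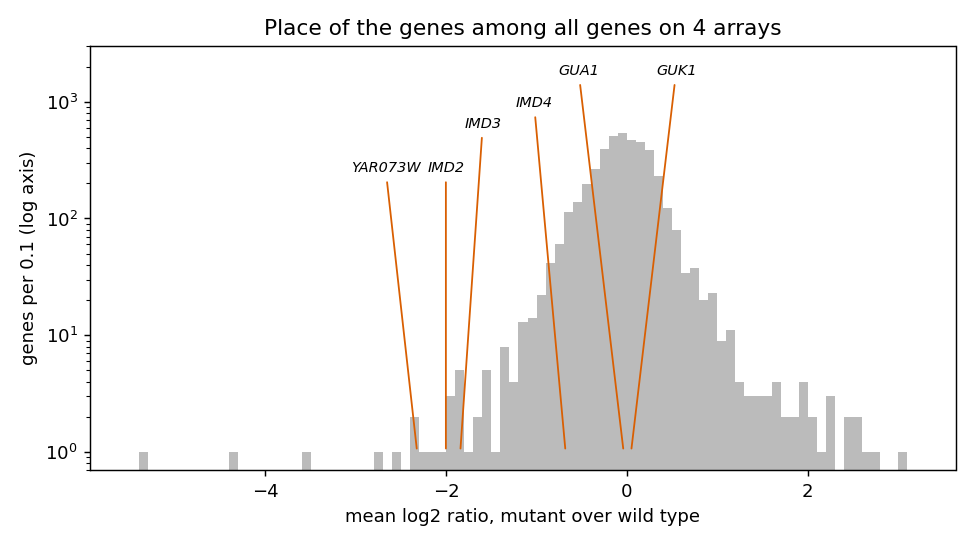
Distribution of the mean log2 ratio over the 4255 genes measured on 4 arrays (x axis, bins of 0.1; y axis, genes per bin on a log scale), with lines leading to the means of the 5 genes and of YAR073W. IMD2 at −2.00 and IMD3 at −1.84 lie in the sparse lower tail, IMD4 at −0.68 on the lower flank, and GUA1 and GUK1 at the centre.

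All 5 genes read higher on array 4 than in the mean of arrays 1 to 3, but by unequal amounts. The difference was 0.21 for *IMD2*, 0.56 for *IMD3*, 1.04 for *IMD4*, 1.02 for *GUA1* and 0.49 for *GUK1*, against a median of 0.11 over all genes. *IMD4* was at or above 95.7% and *GUA1* at or above 95.3% of all genes in this difference, *IMD3* and *GUK1* were at 80.2% and 76.6%, and *IMD2* was near the middle at 58.4%. YAR073W hardly differed, by 0.01. In experiment 1 the ratio with the mutant in Cy5 minus that with the mutant in Cy3 was −0.21, −0.28 and −0.16 for *IMD2*, *IMD3* and *IMD4*, and in experiment 2 it was 0.38, 0.62 and 1.07. The dye difference of the IMD genes thus had opposite signs in the 2 experiments. That of *GUA1* (0.35 and 0.90) and *GUK1* (0.24 and 0.62) was positive in both. The means of all 5 genes are the same in a fit with a dye term, since each experiment holds both orientations. The brightness of the spots on array 4 was not analysed here.

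**Figure D3:**
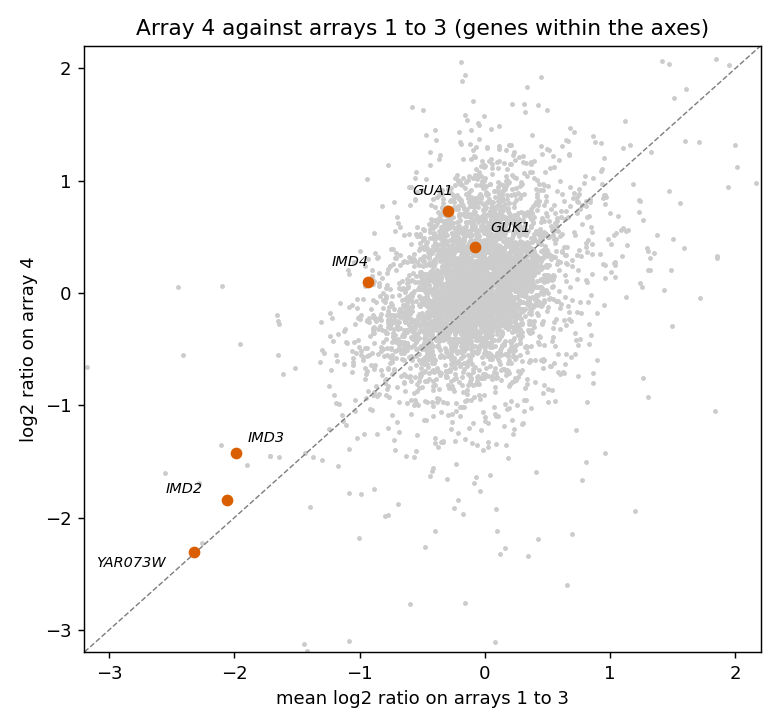
Log2 ratio on array 4 (y axis) against the mean of arrays 1 to 3 (x axis) for genes measured on 4 arrays (grey; 39 genes lie outside the axes), with the 5 genes and YAR073W in orange and the line of equality dashed. YAR073W lies on the line, IMD2 close to it, and IMD4 and GUA1 lie 1.04 and 1.02 above it.

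The other genes of purine metabolism were grouped by their role. No list median was as low as *IMD2* or *IMD3*, but *IMD2* was chosen for its low ratio, so this comparison carries no weight. Of 43 genes in 5 metabolic lists, 40 had a value on 4 arrays, and of these 1 fell and 2 rose past an adjusted p of 0.05 (limma with Benjamini-Hochberg adjustment over all genes). That is 7.5% of them, beside 3.36% of all 4255 genes, 1.62% higher and 1.74% lower. These lists were written with earlier results of the same arrays known.

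Synthesis of IMP, the substrate of IMP dehydrogenase, had negative means for 9 of 9 genes, beside 55.2% of all genes, and 0 of 9 passed the test in either direction. The list median was −0.50, and on single arrays −0.50, −0.45, −0.04 and −0.54, so that it was close to 0 on array 3. At an unadjusted p, 5 of the 9 were under 0.05 in limma, all lower, beside 12.9% of all genes. The lowest means were those of *ADE57*, a bifunctional enzyme of early steps (−0.58 ± 0.21, adjusted p = 0.188), and *ADE17*, which makes IMP (−0.53 ± 0.16, adjusted p = 0.143). The highest were those of *ADE2* (−0.18, adjusted p = 0.562) and *ADE4*, the first committed enzyme (−0.15, adjusted p = 0.67). The 5 PRPP synthetase genes, which supply the sugar phosphate for this route, had a median of 0.12, from *PRS5* and *PRS3* at −0.09 and 0.10 to *PRS4* and *PRS2* at 0.24 each. None of these passed the test (adjusted p from 0.471 to 0.831), and the list median was 0.70 on array 4 against −0.12 to 0.01 on arrays 1 to 3.

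In the adenylate branch and the reactions that lead back to IMP, 1 of 6 measured genes fell, beside 1.74% of all genes, and the list median was −0.36. At an unadjusted p, 3 of the 6 were under 0.05 in limma, all lower, beside 12.9% of all genes. *AAH1* (YNL141W), the adenine deaminase that yields hypoxanthine, read −1.66, −1.42, −1.85 and −0.27 on arrays 1 to 4. As with *IMD2*, *IMD3* and *IMD4*, the weakest ratio was that of array 4, although *IMD2* read nearly the same on array 2 (−1.87 against −1.84). Its mean was −1.30 ± 0.19, a 2.46-fold fall (adjusted p = 0.0229). The call was lost with a dye term (adjusted p = 0.0558) and without array 2 (0.0526). It was also lost without array 3 (0.559), but no gene at all passed in that setting. *AMD1*, the AMP deaminase that returns AMP to IMP, was negative on all 4 arrays, between −1.17 and −0.56, with a mean of −0.85 ± 0.17 that missed the threshold (adjusted p = 0.0519). It passed in 6 alternatives, among them the fit with each array centred on its median (adjusted p = 0.0463) and that without array 4 (0.0332). *ADE12*, the first enzyme from IMP towards AMP, had a mean of 0.21 (adjusted p = 0.511) and the adenylate kinase *ADK1* one of −0.23 (adjusted p = 0.475).

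Among 11 measured genes of purine salvage and uptake, 1 rose and 0 fell, beside 1.62% and 1.74% of all genes, with a median of 0.06. At an unadjusted p, 4 of the 11 were under 0.05 in limma, 3 higher and 1 lower, beside 20.2% of all genes in either direction. *APT2* (YDR441C), a relative of the adenine phosphoribosyltransferase gene *APT1*, read 1.35, 1.03, 0.41 and 1.34, a 2.04-fold rise (1.03 ± 0.17, adjusted p = 0.0376). It was positive on each array. The call was nevertheless lost without any 1 of the 4 arrays (adjusted p from 0.0583 to 0.281) and when 1 array per experiment sufficed (0.069). Without array 3 no gene at all passed, so that loss is not particular to *APT2*. *PNP1*, the purine nucleoside phosphorylase, read 0.56 ± 0.16 (adjusted p = 0.13), and at the other end of the list stood *FUN26*, a vacuolar nucleoside transporter, at −0.72 ± 0.17 (adjusted p = 0.0769) and *XPT1*, which salvages xanthine, at −0.35 (adjusted p = 0.312). *HPT1*, which salvages guanine to GMP directly, had values from −0.22 to −0.01 and a mean of −0.11.

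Genes listed for using GTP or other guanine nucleotides had a median of 0.46, with 6 of 9 means above 0, beside 44.8% of all genes. The list holds *RNR1* to *RNR4* of ribonucleotide reductase, an enzyme not confined to guanine nucleotides, and the median is the value of *RNR3*. The other genes were *RIB1* at 0.90, *FOL2* at 0.55, *GDA1* at 0.005, *PSA1* at −0.295 and *VRG4* at −0.35. The median is thus no measure of guanine nucleotide use alone. *RNR4* (YGR180C), a small subunit of ribonucleotide reductase, read 1.16, 0.73, 0.91 and 1.10, a 1.97-fold rise (0.98 ± 0.16, adjusted p = 0.0363). All 4 of its values were clearly positive. The call was nevertheless lost without array 1, 2 or 3 (adjusted p from 0.0585 to 0.395) and when 1 array per experiment sufficed (0.0665). Without array 3 no gene at all passed, so that loss is not particular to *RNR4*. *RIB1*, the GTP cyclohydrolase of riboflavin synthesis, read 0.90 ± 0.20 (adjusted p = 0.0644, and 0.0475 without array 4). *RNR1*, the large subunit of the reductase, stood at the opposite end with −1.28 and −1.47 in experiment 1 and −0.32 and −0.06 in experiment 2 (mean −0.78 ± 0.29, adjusted p = 0.196). The Golgi GDP-mannose transporter *VRG4* had a mean of −0.35 (adjusted p = 0.316).

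**Figure D4:**
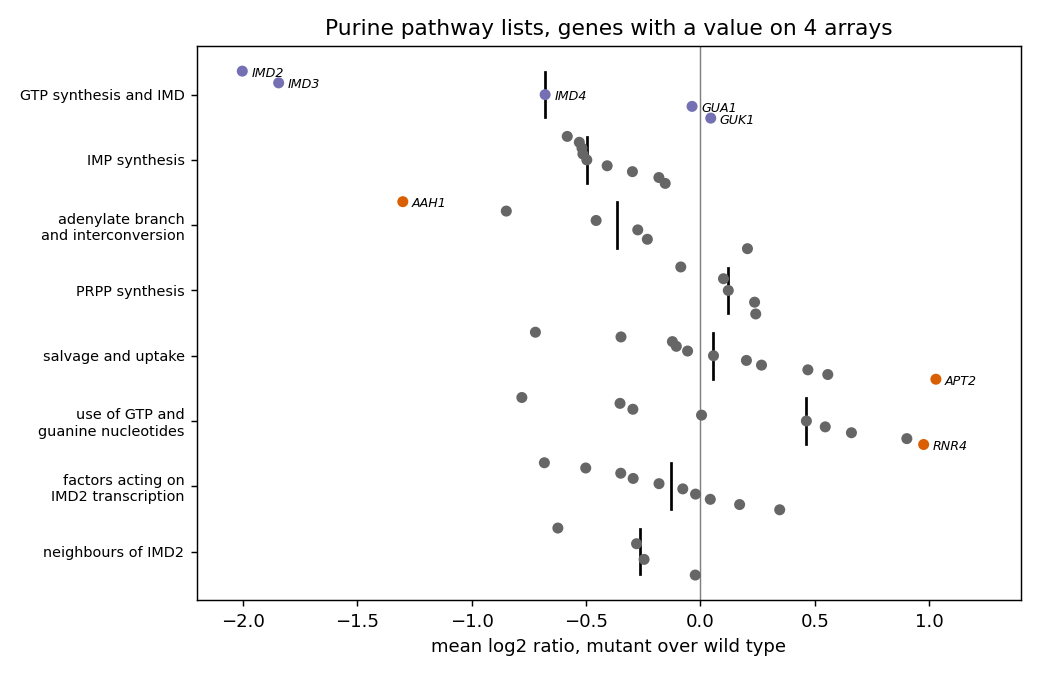
Mean log2 ratio of mutant over wild type (x axis) for each gene measured on 4 arrays, in rows by role, with the list median as a black bar. Orange points are genes past an adjusted p of 0.05 in limma (AAH1, APT2 and RNR4), grey points are those that did not pass, and the 5 guanine nucleotide genes in purple were not tested. IMD2 and IMD3 lie below every gene of the other lists, and IMD2 was chosen for its low ratio.

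The factors known to act on transcription of *IMD2* were measured in 10 of 11 cases, and 0 of 10 passed in either direction (2 at an unadjusted p under 0.05 in limma, both lower). That is 20% of the list, beside 12.9% of all genes that were lower at this p and 20.2% in either direction. The list median was −0.13. *SEN1*, the helicase of the early termination pathway, was negative on all 4 arrays, from −1.05 to −0.24, with a mean of −0.68 ± 0.19 (adjusted p = 0.12). *SPT5*, an elongation factor, read −0.50 ± 0.19 (adjusted p = 0.214). *NRD1*, the RNA-binding partner in that termination pathway, had a mean of 0.17 (adjusted p = 0.608) and the polymerase subunit *RPB9* one of 0.35 (adjusted p = 0.292). Oligo(dT)-primed cDNA on these arrays does not tell transcripts with different start sites apart.

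*IMD2* lies near a chromosome end, and its neighbours were compared with it. The 4 neighbours measured on all arrays all had negative means, beside 55.2% of all genes. Of these 4, 0 passed the test, and 1, *PHO12*, was lower at an unadjusted p under 0.05 in limma. That is 25% of this short list, beside 12.9% of all genes that were lower at this p. *PHO12*, the acid phosphatase gene next to *IMD2*, read −0.56, −0.96, −1.18 and 0.21, with a mean of −0.62 ± 0.17 (adjusted p = 0.114). It passed in 2 of 12 alternatives, with the arrays paired the other way (adjusted p = 0.0406) and without array 4 (mean −0.97). *PHO12* has a near-identical relative, so its value is uncertain. Probe sequences were not used, so shared signal at the other neighbours was not examined either. On the other side YHR218W and YHR219W had means of −0.28 and −0.25 (adjusted p = 0.398 and 0.451). YHR214W, beyond *PHO12*, had a mean of −0.02 (adjusted p = 0.967). The ratio of *IMD2* was lower than that of each of these neighbours on every array, but *IMD2* was chosen for a strongly negative ratio. *IMD3* lies between *ATG23* (mean 0.03) and *CNA1* (0.12), and *IMD4* between *CMP2* (0.02) and *SPC2* (−0.15). None of these 4 flanking genes, chosen after the values were seen, had a ratio near that of its IMD neighbour, with adjusted p from 0.694 to 0.963. *CNA1* and *CMP2* encode the catalytic subunits of calcineurin, so *IMD3* and *IMD4* each sit beside a calcineurin gene.

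The genes nearest to *IMD4* over the 4 arrays were picked for likeness to its values. That they turned towards or above 0 on array 4, as *IMD4* did, therefore follows from the choice. They were *SAH1*, the S-adenosylhomocysteine hydrolase (distance 0.31, mean −0.64), YMR290W-A (0.31, −0.62), *HMG1*, an HMG-CoA reductase (0.31, −0.62), *PHO89*, a phosphate transporter (0.31, −0.53), and *DED1*, an RNA helicase of translation (0.32, −0.77). Their values ran from −1.21 to −0.66 on arrays 1 to 3 and from −0.08 to 0.21 on array 4.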

How the data were processed

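The deposited values are log2 ratios, 1 column for each array, as the authors made them. Spots smaller than 120 µm or dimmer than 100 fluorescence units were dropped by the authors, per the labels, and left blank. How the ratios were normalized, centred and turned, and their log base, is not given in the sources used here. The direction was read as mutant over wild type from *TRK1* and *TRK2*, which have values only with the mutant in Cy5. For arrays 2 and 3 it rests on their positive correlation with array 1 (0.80 and 0.55 over genes). Base 2 was assumed. Arrays were paired into experiments by the wording of their labels and their opposite dyes.

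Experiment means were compared with 0 in limma 3.58.1 (R 4.3.3), over 4255 genes with a value on all 4 arrays, adjusted by Benjamini-Hochberg and called at 0.05. The procedure was tested on simulated data. Of 6212 rows, 5662 matched a locus tag of the RefSeq table of assembly R64, used for names and neighbours only. No build is named for the arrays, so no coordinates are printed. The genes, lists and tests were chosen with earlier results of these data known. The genes named were the 5 genes, YAR073W, every list gene past the test, and the 2 highest and 2 lowest of each list. Also named were the 5 nearest to *IMD2* and to *IMD4*, and *TRK1* and *TRK2*. *HPT1*, *RNR2*, *RNR3*, *FOL2*, *GDA1*, *PSA1* and the genes flanking *IMD3* and *IMD4* were named after their values were seen. Alternatives changed the pairing, the replicate unit, the dye term, the scale, the filter, the shrinkage and the arrays used.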

Additional observations from a re-analysis of the deposited data

Results flagged for a closer look

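Among 42 named genes with 4 values, 5 had one array whose distance to the nearest other array exceeded Dixon's 95% critical share of the whole range, and chance alone marks about 1 gene in 20. *IMD4* read 0.098 on array 4 against −1.001 to −0.84 on the other arrays. *NRD1* read 0.622 on array 4 against −0.02 to 0.06. *HMG1*, *PHO89* and *DED1* read −0.08, 0.211 and 0.2 on array 4 against values from −1.21 to −0.75 elsewhere. These last 3 genes were named because their values resemble those of *IMD4*, so they share its odd array by choice. In all 5 the array is array 4, the one that correlates least with the others, and its part in these values was not tested.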

How the results depend on the processing

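The ratio of *IMD2* ran from −2.10 to −1.91 and that of *IMD3* from −2.0 to −1.69 when single arrays were left out, *IMD4* from −0.95 to −0.41, *GUA1* from −0.26 to 0.19 and *GUK1* from −0.11 to 0.20. With arrays centred on their medians *IMD2* stood at −1.95. The signs of *GUA1* and *GUK1* therefore depend on the arrays used. Over all genes, 69 rose and 74 fell, and 255 and 473 did with the other dye-balanced pairing, 163 and 250 with 4 separate arrays, 185 and 292 with the experiment as a random block, and 40 and 39 when 1 array per experiment sufficed. With a dye term 142 fell, and with centred arrays 106 rose. With single arrays left out, 0 to 96 rose and 0 to 121 fell; the 0 is that without array 3, where limma's smallest adjusted p was 0.193 and 385 genes had an unadjusted p under 0.05. In the 7 lists, 2 genes rose and 1 fell, against 8 and 11 with the other pairing, 7 and 4 with separate arrays and 7 and 5 with a random block. There 2 fell with a dye term and 2 with centred arrays, 0 rose when 1 array per experiment sufficed, and 0 to 2 rose and 0 to 3 fell with single arrays left out. *ADE12* ran from −0.0305 to 0.44, *PRS5* from −0.35 to 0.18, *PRS3* from −0.10 to 0.30 and YHR214W from −0.19 to 0.14 with single arrays left out, and YHR214W stood at 0.0291 with centred arrays. None of these had passed the test, and the cause of each change was not tested. Each ratio already pairs both strains within an array, and the arrays form 1 group, so no further pairing of strains was applied.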
